A study of Mus musculus with 4 samples.

Results

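The cytosolic ribosomal protein genes encode the proteins of the large and small subunits of the cytosolic ribosome. They were taken by symbol: every protein-coding gene named Rpl or Rps with a number and an optional short suffix, plus Rplp0, Rplp1, Rplp2 and Rpsa. The S6 kinase genes (10 symbols starting with Rps6k), Rps19bp1, which encodes a protein that binds RPS19, pseudogene symbols and unnamed gene models were left out. This gave 85 of the 55573 genes in the files, 52 of the large and 33 of the small subunit. The rule itself used no measured value, but the family was chosen with earlier results of these data known.

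The libraries came from bone marrow B cells of C57BL/6 mice aged 8 to 12 weeks, sorted by FACS as Fr.C+C'. In the Hardy scheme this fraction covers the late pro-B and the early, large pre-B stage. There were 2 wild type libraries (WT 1, WT 2) and 2 libraries labelled ADAR1 KO (KO 1, KO 2), and values below are in that order. ADAR1, the product of Adar, edits adenosines to inosines within RNA duplexes. The sources used here do not give the allele, the cells in which it was deleted, or whether replicate libraries are from different mice. The p-values therefore measure only the spread between the libraries sequenced, which may be technical.

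Each library held between 15111775 and 16406431 fragments assigned to genes, as recovered from the deposited FPKM (fragments per length of exon and per size of the library). Adar stood at 15.04, 14.62, 15.19 and 16.79 FPKM, so its level over the whole gene was not lower in the libraries labelled KO. This value cannot show the loss of single exons and does not check the label. No B lineage marker was at 0: the 12 markers listed summed to 1622, 1659, 1385 and 787 FPKM. The 12 neutrophil markers summed to 27505, 25715, 36096 and 73298 FPKM, none at 0, and each had a positive log2 change. KO 2 stood apart, with 24.0% of all FPKM on its 10 most abundant genes of any kind. The same share was 12.5%, 12.2% and 14.3% in WT 1, WT 2 and KO 1. In bulk libraries, fewer cells of a type and less RNA per cell cannot be told apart.

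Ribosomal proteins are made in near-equal numbers and assembled on ribosomal RNA in the nucleolus, and their mRNAs are among the most abundant of growing cells. Most of these mRNAs start with a C followed by a run of pyrimidines (C and T), the terminal oligopyrimidine or TOP motif. Through it, mTORC1 and the binding protein LARP1 control their translation together. When ribosome assembly fails, free RPL5 and RPL11 bind MDM2 and stabilise p53. The genes are also the most frequent parents of processed pseudogenes in mammalian genomes.

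The start sites show a feature of the family that the choice of members did not use. The 6 windows below, from RefSeq (build GRCm38.p6), run 5′ to 3′ from 30 bases before to 20 bases from the annotated start, and capitals mark the longest run of C or T where it has at least 8 bases. The first 5 are shown because they hold such a run, and Rpl36a, whose mRNA had the lowest level in KO 2 relative to wild type, because it holds none.
Rpl7a, chr2:26910777-26910826, plus strand: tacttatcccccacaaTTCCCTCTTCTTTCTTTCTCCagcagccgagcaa
Rpl35, chr2:39005112-39005161, minus strand: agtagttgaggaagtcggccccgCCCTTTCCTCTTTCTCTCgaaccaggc
Rps15a, chr7:118116128-118116177, minus strand: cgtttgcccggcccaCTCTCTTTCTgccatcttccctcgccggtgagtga
Rpl38, chr11:114668550-114668599, plus strand: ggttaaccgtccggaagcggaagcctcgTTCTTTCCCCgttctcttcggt
Rps10, chr17:27635225-27635274, minus strand: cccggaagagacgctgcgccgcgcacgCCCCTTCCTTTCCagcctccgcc
Rpl36a, chrX:134585624-134585673, plus strand: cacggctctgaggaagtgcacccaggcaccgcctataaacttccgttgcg
RefSeq promoters were matched for 65 of the 85 genes, with 77 windows in all. A run of at least 8 C or T on the gene's strand within 25 bases of the start was present in 34 of the 77 windows (44.2%), against 19.7% of 32851 windows of all genes. The hexamer CGGAAG, searched on both strands of the 300-base window, was present in 46 windows (59.7%, against 16.9%). AAGATGG, on both strands, was present in 12 (15.6%, against 6.34%). The TATA-box letters TATAAA were present in 7 (9.09%, against 13.6%). The motifs were counted separately and may overlap; a match is a description of letters, not of a bound site, and a window with no match shows only that these letters are not in it.

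The family made up a large part of the transcriptome and a smaller part in KO 2. The 85 genes summed to 21912, 19720, 20254 and 15054 FPKM, which is 6.71%, 6.27%, 6.29% and 4.33% of all FPKM in WT 1, WT 2, KO 1 and KO 2. KO 1 lay between the wild type libraries and KO 2 below all 3 others. As a share of estimated fragments, which counts long transcripts more, the values were 3.51%, 3.18%, 3.18% and 2.44%. Outside the 10 most abundant other genes of each library the shares were 7.66%, 7.14%, 7.33% and 5.71%, so KO 2 remained lowest with those genes set aside. Large subunit genes summed to 1.57, 1.56, 1.63 and 1.53 times the small subunit genes. With 2 libraries against 2 no exact permutation p can go below 0.333, and the share was not tested.

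Levels of single genes spanned a wide range in wild type cells. The mean of WT 1 and WT 2 had a median of 126 FPKM over the 85 genes, with quartiles of 22.8 and 287 FPKM. There were 10 genes at 500 FPKM or more and 22 genes under 25 FPKM. The highest was Rplp1 of the ribosomal stalk, the lateral protuberance that recruits elongation factors, at 2115, 1846, 2156 and 1357 FPKM. Its stalk partners stood lower, Rplp0, the base of the stalk, at 1329.5, 1181, 1249 and 898 FPKM and Rplp2 at 289.6, 258, 298 and 192 FPKM. Next were Rps15, of the head of the small subunit, at 1159, 1037, 1185 and 791 FPKM, and Rpl4, which lines the exit tunnel for the nascent chain, at 1057, 1012, 924 and 745 FPKM. Rpl36 of the large subunit stood at 895, 758, 995 and 609.6 FPKM. The levels of Rplp0 and Rps15 overlapped between libraries, and so did those of Rps15 and Rpl4. FPKM divide by the length of all annotated exons, which was 499 bases for Rplp1 and 2072 for Rplp2. Their estimated fragments in WT 1 were 16677 and 9483, a smaller gap than in FPKM. Over the 83 genes tested, the wild type level had a Spearman's rho of -0.25 with this length. Comparisons of level between genes therefore depend on the exon length used. The order of the genes was nearly the same in every library: Spearman's rho between libraries ranged from 0.988 to 0.996 over the 83 genes tested, which share their library and gene length and are not independent replicates.

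**Figure D1:**
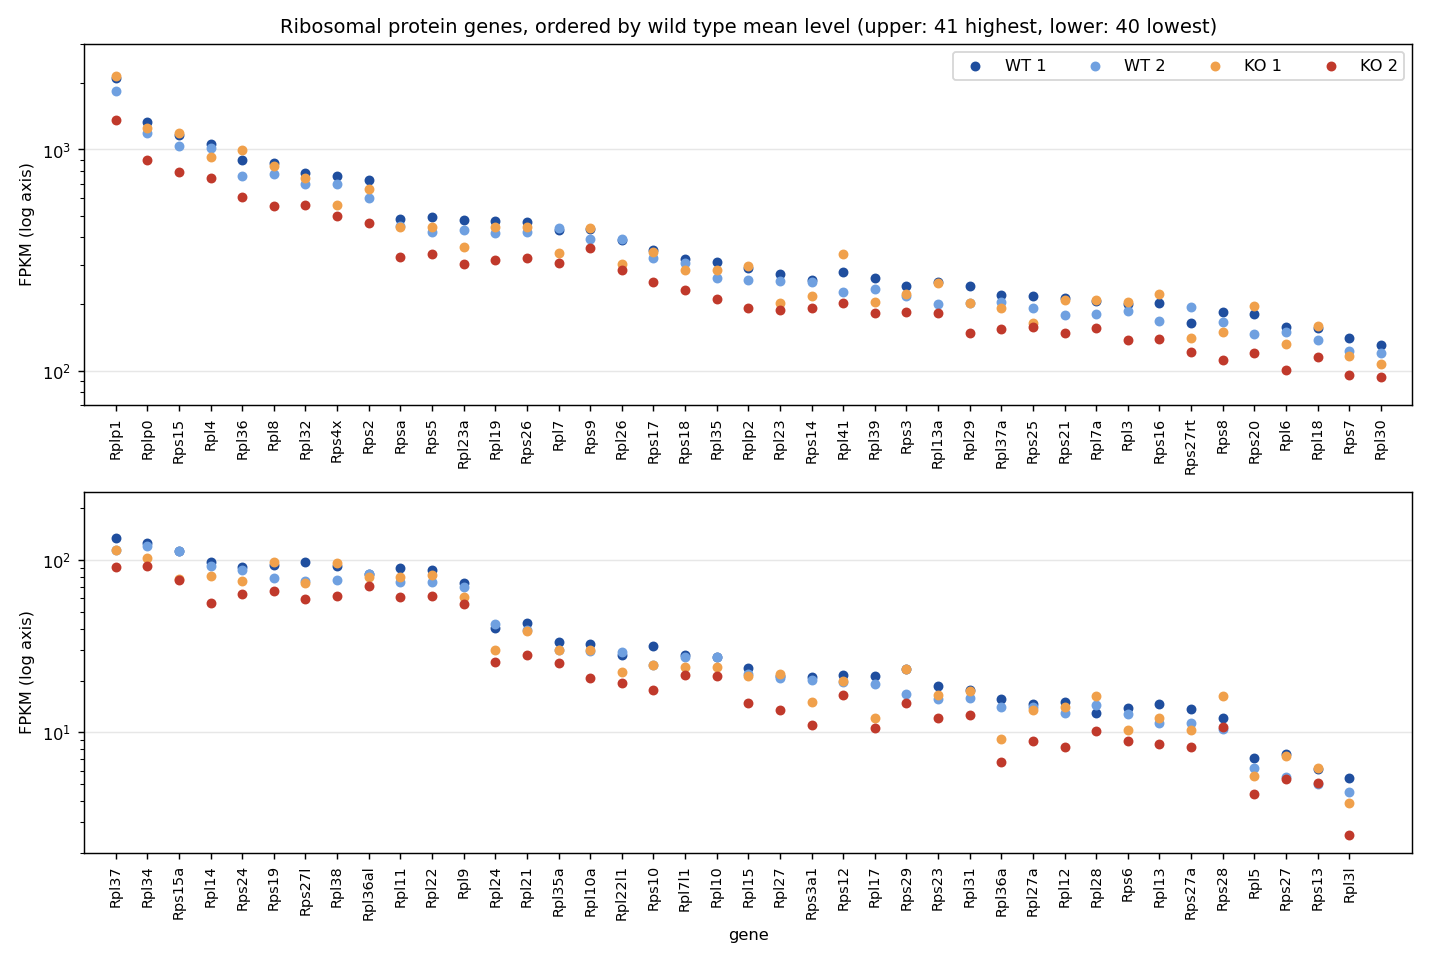
FPKM (log axis) of 81 of the 83 ribosomal protein genes tested in WT 1, WT 2, KO 1 and KO 2, ordered by wild type mean; each point is 1 library. The KO 2 point is the lowest of the 4 for 79 of these 81 genes, while KO 1 points are mixed with the wild type points for the most abundant genes and lie below them for others.

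Many of the low genes had near-identical copies elsewhere in the annotation, with higher values than their own. Of the 85 genes, 80 had at least 1 copy, meaning another annotated gene that aligned to at least 80% of the coding sequence at 90% identity or more. The median was 8 copies per gene and the largest number 77, for Rpl21. There were 990 distinct copy genes, 971 of them annotated as pseudogenes. Copies summed to more than the gene itself in wild type cells for 29 genes. Among them were 16 of the 22 genes under 25 FPKM and 5 of the 46 genes at 100 FPKM or more. A low gene is exceeded by its copies more easily than a high one, so this contrast partly follows from the cut. The median gene had 50.6% of its 50-base stretches unique among all GENCODE M21 transcripts. Over the 83 genes tested, the wild type level had a Spearman's rho of -0.16 with the number of copies and 0.19 with this percentage. The sources used here do not say how reads that match several loci were counted, so the level of such a gene is uncertain.

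The coding sequences below show how little separates a gene from its copy. Both pairs are from GENCODE M21 transcripts (GRCm38), 60 bases each, 5′ to 3′, counted from the A of the start codon; capitals mark bases at which the copy differs. Rps3a1 (chr3:86137940-86142702) and its processed pseudogene Rps3a2 (chr14:88123017-88123808, minus strand) differed at 4 of 792 coding bases, 2 of them in bases 609 to 668. Rps12 (chr10:23785183-23787275) and Rps12-ps3 (chr19:59322290-59322783, plus strand), which is annotated as protein coding in spite of its symbol, were identical over all 396 coding bases, of which bases 1 to 60 are shown.
Rps3a1: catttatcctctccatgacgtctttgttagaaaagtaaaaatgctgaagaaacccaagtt
Rps3a2: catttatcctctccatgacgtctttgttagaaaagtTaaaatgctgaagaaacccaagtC
Rps12: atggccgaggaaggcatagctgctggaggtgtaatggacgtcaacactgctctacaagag
Rps12-ps3: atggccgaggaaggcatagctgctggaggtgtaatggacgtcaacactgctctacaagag
Rps3a1 itself stood at 21.1, 20.3, 14.99 and 11.03 FPKM and Rps3a2 at 643, 629, 411 and 354 FPKM. Rps12 stood at 21.6, 19.6, 19.9 and 16.5 FPKM and Rps12-ps3 at 804, 691, 659 and 456 FPKM. In both pairs the copy had a far higher value than the gene in all 4 libraries.

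Other low genes showed the same division. Rps27 of the small subunit stood at 7.52, 5.49, 7.26 and 5.33 FPKM, and its retrogene Rps27rt (chr9:114982366-114982739, minus strand), itself one of the 85 genes and identical over 252 coding bases, at 165, 194, 139.8 and 121 FPKM. Rpl36a, whose protein lies near the exit site for transfer RNA, stood at 15.6, 13.99, 9.15 and 6.71 FPKM, and Rpl36a-ps2 (chr3:145879020-145879340, plus strand), identical over 318 coding bases, at 288, 266, 249 and 205 FPKM. For Rpl5, which carries 5S ribosomal RNA into the large subunit, the gene stood at 7.12, 6.22, 5.6 and 4.39 FPKM and the identical copy Gm15500 at 167, 144, 136 and 113 FPKM. Rps28 of the small subunit stood at 12.1, 10.4, 16.2 and 10.8 FPKM and its identical copy Gm10443 at 565, 509.6, 709 and 423 FPKM. Rpl17, a protein at the mouth of the exit tunnel, stood at 21.3, 19.1, 12.1 and 10.7 FPKM and Rpl17-ps10 at 619, 599, 498 and 461 FPKM. Summed with their copies, the 85 genes had a median of 259 FPKM in wild type cells, 4 genes remained under 25 FPKM, and the family made up 10.7%, 9.95%, 10.1% and 6.97% of all FPKM. KO 2 was again below the other 3 libraries.

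**Figure D2:**
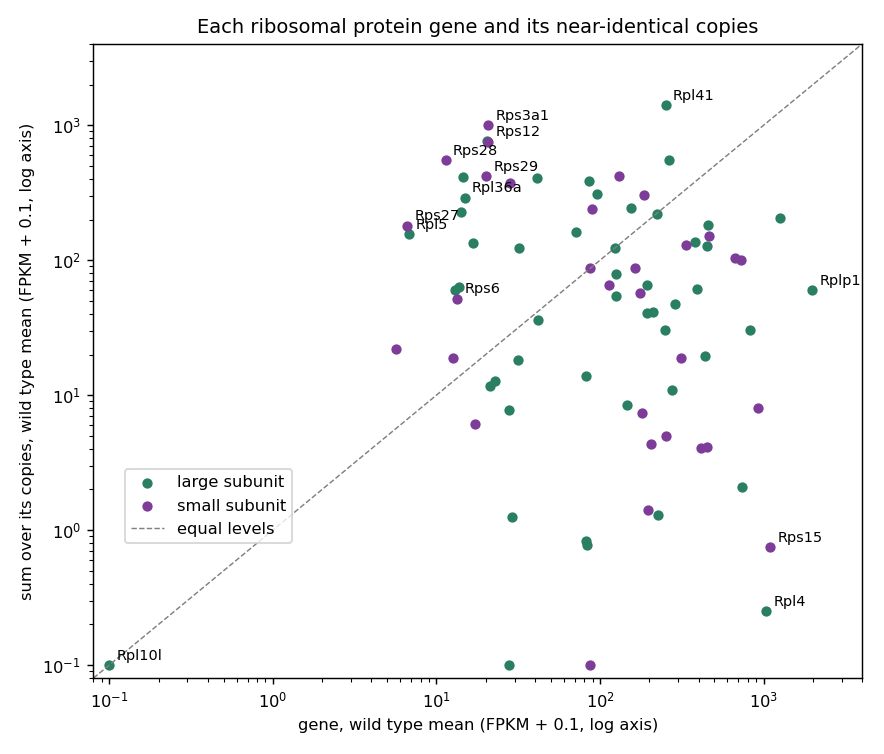
Wild type mean of each ribosomal protein gene with at least 1 near-identical copy (x, FPKM plus 0.1, log axis) against the summed wild type mean of its copies (y, same scale), by subunit; the dashed line marks equal levels. The 29 genes above the line include Rps3a1, Rps12, Rps28, Rps27 and Rpl5, while Rplp1, Rps15 and Rpl4 lie far below it.

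None of the 83 genes tested passed in the comparison of KO with WT, and nearly all had a lower mean in KO. The test was limma on log2(FPKM + 1) over 13281 genes, with Benjamini-Hochberg adjustment and a threshold of 0.05. It called 0 of the 83 higher and 0 lower, where percent called over all genes was 0.203 (27 genes, all lower), and the members' lowest adjusted p was 0.276. At an unadjusted p under 0.05, 7 of the 83 were lower, against 6.02% of all genes, and 0 were higher, against 6.45%. With voom, a weighted form of the limma fit, on estimated fragments, 0 passed and 10 of 83 had an unadjusted p under 0.05, all lower, against 4.56% of all genes lower and 12.5% in either direction. The log2 change was negative for 80 of 83 genes (96.4%, against 61.7% of all genes), and for 72 to 82 of them under the other scalings of the libraries. Its median was -0.28, against -0.09 over all genes tested. The remaining genes, Rpl10l, which was at 0 in every library, and Rpl39l, at 0.30, 0.07, 0 and 0.40 FPKM, were below the filter of a mean of 1 FPKM in either group.

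The libraries labelled KO differed from each other in this family. In KO 2 all 83 genes lay below the wild type mean, with a median difference of -0.46 on the log2(FPKM + 1) scale and a range of -1.03 to -0.05. In KO 1 the median difference was -0.08 and the range -0.69 to 0.49, with 56 of 83 genes below the wild type mean. Over all genes tested the medians were -0.17 in KO 2 and -0.01 in KO 1. Both differences use the same wild type mean. The SD of the differences over the family was 0.15 in KO 2 and 0.22 in KO 1, against 0.64 and 0.45 over all genes tested. Lists of similar genes were as narrow or narrower in KO 1: the 33 initiation factors had SDs of 0.16 in KO 2 and 0.12 in KO 1, and the 77 mitochondrial ribosomal protein genes 0.21 and 0.19. Relative to the mean of the wild type libraries, the median gene stood at 72.5% in KO 2 and 94.0% in KO 1, and 68 of 83 genes stood between 60% and 80% in KO 2. KO 2 was below both wild type libraries for 81 of 83 genes, against 58.3% of all genes tested, and KO 1 for 41, against 39.2%. KO 1 was above both wild type libraries for 17, against 37.5%. Both KO libraries were below both wild type libraries for 41 of 83 genes (49.4%, against 31.7% of all genes), and both above for 0 (against 19.7%). These 41 are the genes for which KO 1 was below both, so the count adds nothing to that of KO 1. Between the wild type libraries, WT 1 was above WT 2 for 75 of 83 genes, with a median difference of 0.16 and an SD of 0.12. The subunits had similar medians in KO 2, -0.48 for the 50 large and -0.45 for the 33 small subunit genes, and in KO 1, -0.09 and -0.06.

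**Figure D3:**
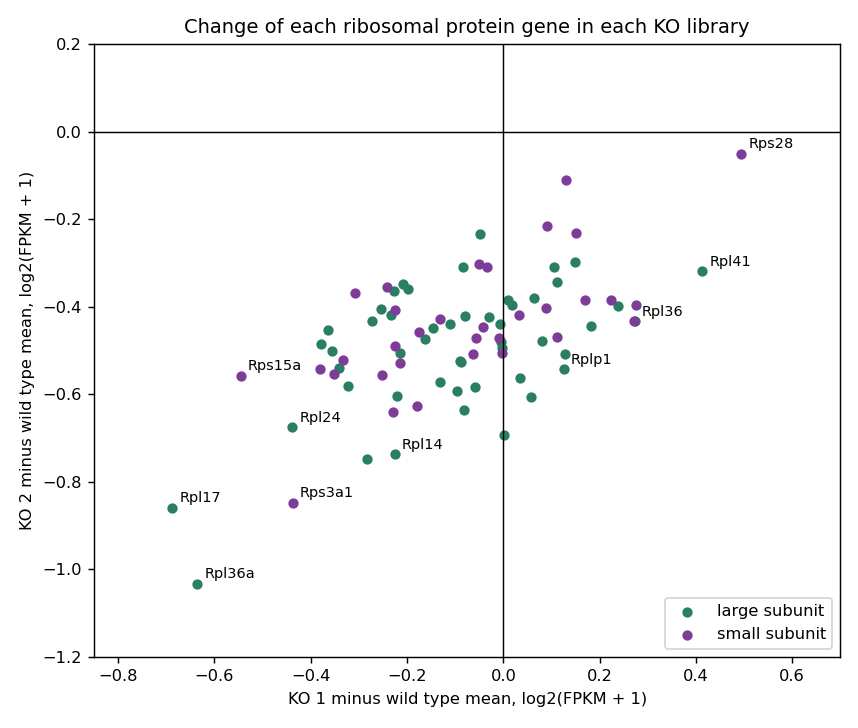
Difference from the wild type mean in KO 1 (x) and KO 2 (y), log2(FPKM + 1), for each of the 83 genes tested, by subunit; both axes share the wild type mean. Every point lies below 0 on the y axis, whereas points lie on both sides of 0 on the x axis.

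Markers of other cells differed between the same libraries. The neutrophil list had median differences from the wild type mean of 0.47 in KO 1 and 1.48 in KO 2. For 11 of its 12 genes each KO value exceeded each wild type value (91.7%, against 19.7% of all genes). B lineage markers had a median of -0.04 in KO 1 and of -0.95 in KO 2. Erythroid markers summed to 1206, 706, 309.9 and 598 FPKM, monocyte and macrophage markers to 288, 174, 150 and 247 FPKM, and T and NK cell markers to 58.55, 54.3, 60.4 and 125 FPKM. Much of the last sum was Nkg7, at 26.5, 22.5, 27.8 and 79.15 FPKM, whereas Trac stood at 3.45, 6.06, 3.85 and 3.82 FPKM. Of the 7 T and NK cell genes tested, KO 2 was above both wild type libraries for 5 and below both for 1, Cd3d (29.4% and 58.3% of all genes). Plasma cell markers summed to 284, 296, 185 and 118 FPKM with 1 of 7, Tnfrsf17, at 0 in KO 1 and KO 2. Jchain of this list, the joining chain of secreted antibody, fell from 106 and 91.5 FPKM to 0.25 and 0.45 FPKM (limma adjusted p = 0.00135). The list was not uniform. Of its 6 genes tested, 4 had both KO libraries below both wild type libraries (31.7% of all genes) and 1 above (19.7%). The latter was Xbp1, at 45.6, 39.3, 47.1 and 55.4 FPKM, and Mzb1 was highest in KO 1, at 39.2, 37.55, 50.9 and 28.1 FPKM. Mature B cell markers summed to 407, 384, 284 and 343 FPKM, mostly from Cd74 and H2-Ab1, while the median difference of the 5 tested was -0.84 in KO 1 and -2.07 in KO 2. Fcer2a (CD23) of this list fell from 4.03 and 3.82 FPKM to 0.22 and 0.17 FPKM (limma adjusted p = 0.0476), and Ms4a1 (CD20) stood at 11.01, 12.3, 1.66 and 0.60 FPKM. No other marker of these lists was at 0 in any library. FPKM are shares of a library, so a rise of one group of genes lowers the values of all others in that library. The part of these markers in the lower ribosomal protein values was not tested.

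Without KO 1, 3 of 83 genes passed as lower in limma (2.88% of all genes were called lower): Rps3a1, Rpl36a and Rpl14, with adjusted p of 0.0473, 0.0488 and 0.0490. This fit has a lone KO library, assumed to vary like the wild type pair. At an unadjusted p under 0.05 it gave 55 genes lower, against 25.4% of all genes. Without KO 2, 0 passed, and 11 of 83 were lower at an unadjusted p under 0.05, against 6.37% of all genes lower. In either direction there were 12, against 14.7% of all genes. The median log2 change of the family was -0.08. Rpl14, which was named for this result, stood at 98.2, 92.7, 81.5 and 56.8 FPKM, and its single copy, Rpl14-ps1, at 328, 293, 312 and 222 FPKM.

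The genes with the smallest p had both KO libraries below both wild type libraries without overlap. Rpl17 of the exit tunnel, at the FPKM given above, had a log2 change of -0.77 ± 0.15 (± SE, 95% interval -1.15 to -0.40, limma adjusted p = 0.276). The X-linked Rpl36a had a log2 change of -0.83 ± 0.19 (limma adjusted p = 0.296), and its KO 2 value of 6.71 FPKM was the farthest below wild type of all 83 genes. Rpl24, the gene mutated in the belly spot and tail mouse, stood at 40.2, 42.6, 30.3 and 25.6 FPKM, with a log2 change of -0.56 ± 0.15 (limma adjusted p = 0.345). In the small subunit, Rps15a stood at 114, 114, 77.7 and 76.98 FPKM, and its pairs of libraries agreed to within 1 FPKM. Its change was -0.55 ± 0.14 (limma adjusted p = 0.345). Rps3a1 had a log2 change of -0.64 ± 0.18 (limma adjusted p = 0.346), and its copies Rps3a2 and Rps3a3 were also lower in KO 1 and KO 2 than in either wild type library. Rps6, the substrate of the S6 kinases downstream of mTORC1, stood at 13.8, 12.8, 10.3 and 8.96 FPKM, with a log2 change of -0.43 ± 0.15 (limma adjusted p = 0.376). Of these 6 genes, Rpl17, Rpl36a, Rps3a1 and Rps6 have copies that sum above the gene. Summed with copies, Rpl36a stood at 317, 293, 271 and 217 FPKM and Rpl17 at 805, 772, 649.8 and 590.2 FPKM, with no overlap between the groups and smaller log2 changes of -0.33 and -0.35. Rpl24 with its copies stood at 84.03, 70.6, 80.3 and 62.2 FPKM, so that the groups overlapped, and its log2 change was -0.12. For Rps15a, Rps3a1 and Rps6 the groups stayed apart, with -0.44, -0.59 and -0.29. The seventh gene with an unadjusted p under 0.05 was Rpl22l1 (-0.44 ± 0.14, limma adjusted p = 0.372).

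None of a fixed set of genes, named for their known roles, passed the threshold. Rpl11, the partner of Rpl5 in binding MDM2, stood at 89.8, 74.98, 80.4 and 60.9 FPKM, with a log2 change of -0.23 ± 0.20 (limma adjusted p = 0.611). Its KO 1 value lay between the wild type values, whereas Rpl5 was lower in both KO libraries (-0.36 ± 0.17, limma adjusted p = 0.45). Rps19, the gene most often mutated in Diamond-Blackfan anaemia, stood at 94.2, 79.3, 97.4 and 65.9 FPKM, with KO 1 the highest and KO 2 the lowest library. Rpsa, the laminin receptor precursor mutated in congenital asplenia, stood at 483, 449.7, 446 and 327 FPKM, with a log2 change of -0.29 ± 0.23 (limma adjusted p = 0.58). Rpl38, which is needed for translation of Hox mRNAs in the embryo, stood at 92.8, 76.98, 96.1 and 61.9 FPKM, again with KO 1 highest and KO 2 lowest. The 47 genes tested that no rule singled out had log2 changes from -0.48 to 0.01 and adjusted p from 0.404 to 0.979, and 20 of them had both KO libraries below both wild type libraries, where the share over all genes was 31.7%. Over the stalk, Rplp0, Rplp1 and Rplp2 had log2 changes of -0.24 ± 0.28, -0.21 ± 0.34 and -0.19 ± 0.26; the 95% interval for Rplp1, -1.08 to 0.66, includes changes in both directions. Each of the 3 had its lowest value in KO 2 and a KO 1 value within or just above the wild type pair.

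A few genes departed from the common profile, measured as the root mean square distance of a gene's centred log2 values over the 4 libraries from the median profile of the family. Rpl21, Rpsa, Rpl37a and Rps23 were among the 5 nearest. Rpl37a stood at 219, 205, 191 and 155 FPKM, which is the shape most members shared: WT 1 highest and KO 2 lowest. Among the 5 farthest, Rpl17, Rpl36a and Rps15a were low in both KO libraries, and Rpl41 and Rps28 were high in KO 1. Rpl41, a very short basic peptide at the interface of the subunits, stood at 278, 227, 335 and 201 FPKM (0.05 ± 0.30, limma adjusted p = 0.942), and this value was -0.15 when the gene was summed with its copies, -0.032 with libraries rescaled without the family and -0.0089 after GC adjustment. Rps28 (0.22 ± 0.22, limma adjusted p = 0.642) was highest in KO 1, and so was its copy Gm10443. Across the family the highest of the 4 libraries was WT 1 for 59 genes, KO 1 for 17, WT 2 for 7 and KO 2 for 0.

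The difference of a gene in KO 1 varied with the base composition of its coding sequence. Over the 83 genes, the difference of KO 1 from the wild type mean had a Spearman's rho of 0.58 (Pearson's r 0.57) with GC content, as a description of genes that share a library. For KO 2 the same rho was 0.09, and for WT 1 minus WT 2 it was 0.35. In the 28 genes of lowest GC content (39.9% to 50.6%) the median difference in KO 1 was -0.23 and 25 were negative. It was -0.05 in the middle 28 genes, and -0.0022 in the 27 genes of highest GC content (54.6% to 61.6%), of which 14 were negative. The medians in KO 2 were -0.48, -0.43 and -0.44 for the same groups. The count of genes with both KO libraries below both wild type libraries ran from 24 of 28 through 12 of 28 to 5 of 27. These counts are those of KO 1 alone: it was below both wild type libraries for the same 24, 12 and 5 genes. KO 2 added no restriction. Over all genes tested, 31.7% had both KO libraries below, and 39.2% had KO 1 below, both wild type libraries. The 5 genes lowest in KO 1, Rpl17, Rpl36a, Rps15a, Rpl24 and Rps3a1, had a GC content of 48.2%, 48.7%, 45.9%, 50.96% and 47.2%. The 5 highest in KO 1, Rps28, Rpl41, Rps16, Rpl36 and Rps20, had 57.00%, 53.3%, 54.6%, 61.6% and 49.02%. Across 13271 genes with a transcript GC content, rho was 0.33 in KO 1, 0.08 in KO 2 and 0.19 for WT 1 minus WT 2. The relation was thus present beyond this family. With GC content of the transcript instead of the coding sequence, the family's rho was 0.43, 0.11 and 0.35 in the same order. The part of base composition in the changes was not tested.

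**Figure D4:**
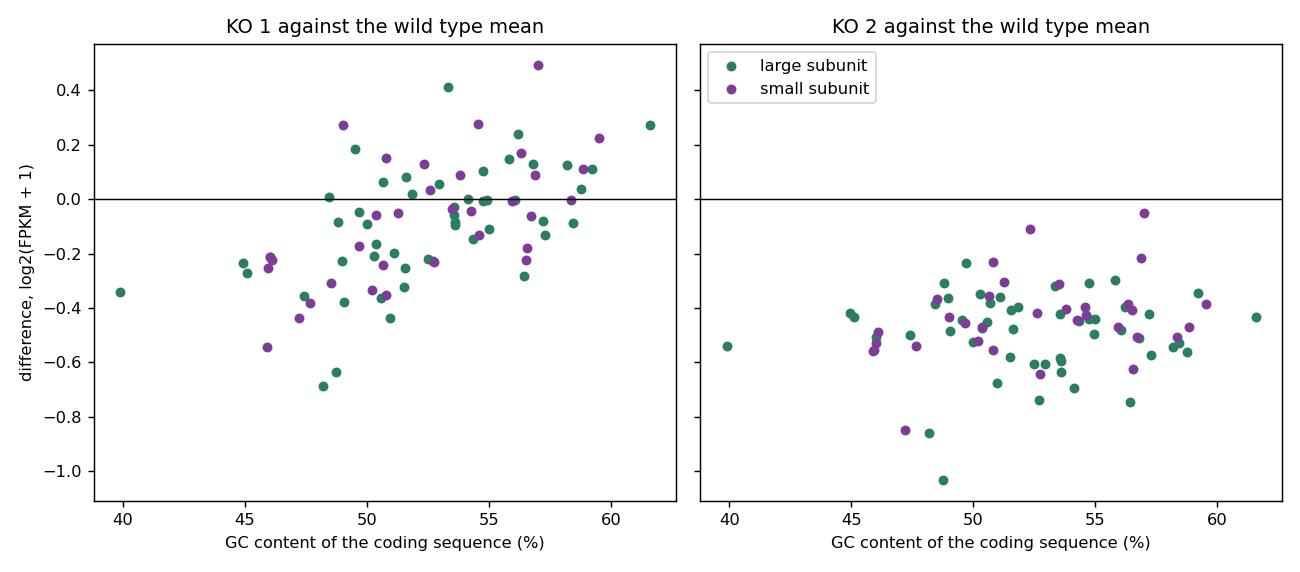
Difference from the wild type mean, log2(FPKM + 1), against GC content of the coding sequence in percent, for the 83 genes tested in KO 1 (left) and KO 2 (right), by subunit. In KO 1 the points rise from left to right (rho 0.58), while in KO 2 they stay below 0 with no such slope (rho 0.09).

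Several family members exist as a pair of paralogous genes, and some of the second genes are used in particular tissues. Rpl22, needed for the development of alpha-beta T cells, stood at 87.8, 75.1, 81.7 and 61.9 FPKM and Rpl22l1 at 28.03, 29.4, 22.4 and 19.4 FPKM, which makes 24.2%, 28.1%, 21.5% and 23.9% of the pair Rpl22l1. Both KO shares lay below both wild type shares, KO 2 only just. Rpl3l, the form of heart and skeletal muscle, stood at 5.43, 4.49, 3.88 and 2.54 FPKM against 201, 185, 204 and 138 FPKM for Rpl3, and made 2.64%, 2.37%, 1.87% and 1.81% of that pair. Rpl7l1 made 6.14%, 5.86%, 6.58% and 6.58% of its pair with Rpl7, which stood at 432, 439, 340.1 and 307 FPKM. The testis forms were at or near 0: Rpl10l was not detected beside 27.5, 27.6, 23.9 and 21.2 FPKM of Rpl10, and Rpl39l was below the filter beside 263, 233, 205 and 183 FPKM of Rpl39. Rpl36al, the autosomal counterpart of Rpl36a, stood at 82.8, 83.4, 80.3 and 70.5 FPKM and made 84.2%, 85.6%, 89.8% and 91.3% of the pair. Rps27l, a target of p53, stood at 97.6, 75.5, 73.9 and 59.2 FPKM and made 92.8%, 93.2%, 91.1% and 91.7% of its pair with Rps27. These last shares are uncertain, since copies of the Rpl36a and Rps27 sequences had higher values than these genes. Rps4x, on the X chromosome, stood at 762, 697, 559.5 and 501 FPKM, while Rps4l, annotated here as a processed pseudogene, made 0.84%, 1.09%, 1.96% and 2.07% of the pair.

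Other lists of the translation machinery also had medians below that of all genes in KO 2, with no gene of these lists past the threshold in limma. Parts of the ribosome that the naming rule leaves out include Fau, which encodes a small subunit protein fused to a ubiquitin-like protein, and Rack1 of the small subunit head. Fau stood at 44.8, 34.7, 43.4 and 33.1 FPKM and Rack1 at 242, 227, 234 and 166 FPKM. For both, KO 2 was the lowest library and KO 1 lay within the wild type range. All 11 genes of the elongation and release factor list had a negative log2 change (0 of 11 passed, median -0.33). The list is broad and includes Eef2k, Eef1e1 and Abce1. For 8 of the 11, both KO libraries were below both wild type libraries (72.7%, against 31.7% of all genes). Eef1a1, which delivers aminoacyl-tRNA and was the most abundant, stood at 3182, 3097, 2717 and 2276 FPKM, and Eef2, the translocase, at 1063, 1021, 1082 and 709 FPKM. Of 33 initiation factors, 31 were negative (0 passed; median -0.25), led by Eif3m of the eIF3 complex at 58.9, 56.3, 44.7 and 41.1 FPKM (-0.42 ± 0.14, limma adjusted p = 0.373). The cap-binding protein gene Eif4e stood at 20.8, 21.1, 16.6 and 13.5 FPKM.

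Of 19 other genes whose mRNAs carry a TOP motif, 18 were negative (0 passed; median -0.25, and -0.12 and -0.46 in KO 1 and KO 2). This list shares genes with the factor lists above. Its exception was Vim, which encodes the filament protein vimentin, at 117, 114, 151 and 189 FPKM (0.55 ± 0.18, limma adjusted p = 0.372). The 14 regulators of TOP mRNAs and of mTORC1 were closer to all genes, with 9 negative, 0 passed and a median of -0.09. Among them Eif4ebp1, the repressor of cap-dependent translation that mTORC1 inactivates, stood at 20.3, 18.1, 28.2 and 24.2 FPKM (0.43 ± 0.15, limma adjusted p = 0.385), and Rps6kb2, a kinase of RPS6, at 12.1, 11.97, 10.4 and 8.48 FPKM. All 12 tested genes for chaperones and import receptors of ribosomal proteins were negative (0 passed; median -0.31), with Nap1l1, a histone chaperone of the list, at 52.1, 54.5, 42.7 and 33.1 FPKM.

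Genes of the p53 response to free ribosomal proteins had log2 changes of both signs: 5 of 8 tested were negative, 0 passed and the median was -0.04. The median was 0.21 in KO 1 and -0.16 in KO 2. KO 1 was above both wild type libraries for 5 of the 8 (62.5%, against 37.5% of all genes) and below both for 3 (37.5%, against 39.2%). Bbc3, which encodes the death protein PUMA, stood at 3.28, 2.84, 8.05 and 5.67 FPKM, with both KO libraries above both wild type libraries (0.94 ± 0.20, limma adjusted p = 0.294). Ccng1, another p53 target, stood at 22.2, 20.6, 18.4 and 19.2 FPKM, with the KO values the lower. Mitochondrial ribosomal protein genes, a separate family made for the ribosome of that organelle, gave a comparison outside the cytosolic ribosome. Of 77 tested, 67 were negative (87.0%, against 61.7% of all genes) and 0 passed. The medians were 0.00 in KO 1 and -0.37 in KO 2, against -0.08 and -0.46 for the cytosolic family. Both KO libraries were below both wild type libraries for 30 of these 77 genes (39.0%), for 49.4% of the cytosolic genes and for 31.7% of all genes. The difference between the families was not tested. The 196 tested copies of ribosomal protein genes had a median of 0.05 in KO 1 and a median of -0.34 in KO 2; 0 of them passed.

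**Figure D5:**
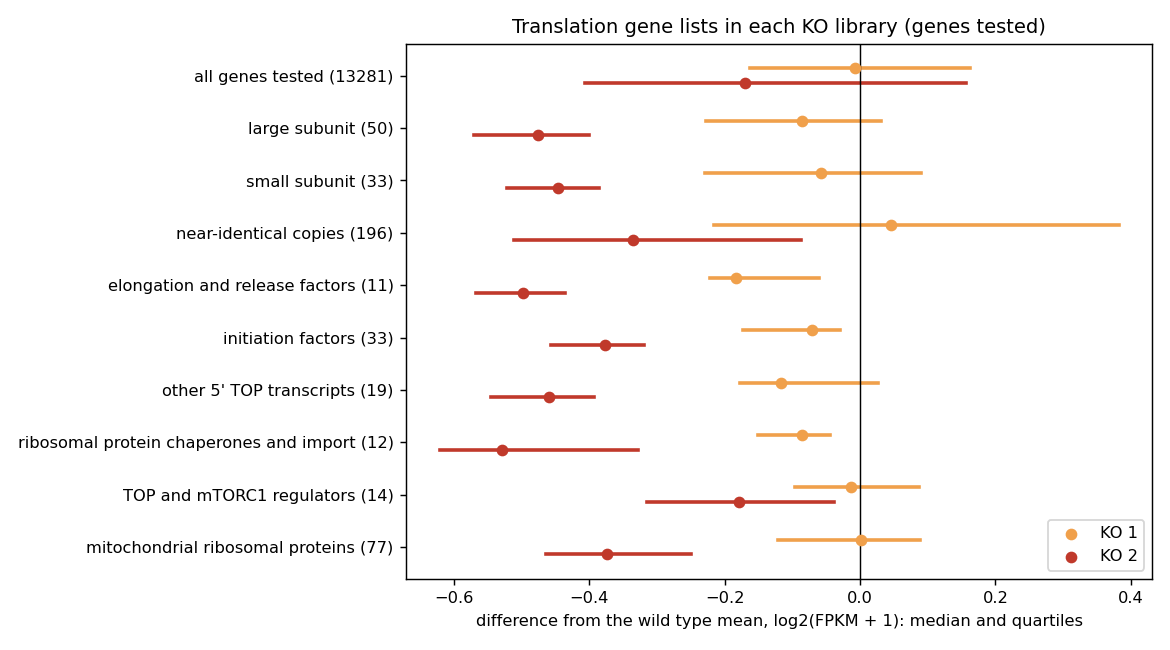
Median (point) and quartiles (line) of the difference from the wild type mean, log2(FPKM + 1), in KO 1 and KO 2 for 9 gene lists and all genes tested, with the number of genes tested in brackets. In KO 2 the translation lists lie left of the median of all genes tested (-0.17), with the TOP and mTORC1 regulators (-0.18) next to it; in KO 1 the medians plotted run from -0.18 to 0.05.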

How the data were processed

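Per the file headers, the authors deposited 1 table of FPKM per library, with 2 decimals, covering 55573 Ensembl genes of the mouse. Per the labels' protocols, 1 µg of Trizol-extracted total RNA with a RIN (integrity score) above 6.5 entered a standard Illumina library preparation. The submitters' processing notes name the build mm9, but the identifiers and implied exon lengths matched GENCODE M21 (GRCm38), which gave symbols, lengths and coordinates. The sources used here do not give the aligner, the counting program or the use of strand.

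FPKM times exon length fell on whole multiples of 1 fragment for 99.5% to 99.6% of low values checked (tolerance 0.15 fragments; 30% by chance), which gave the depths. Exons of 39 members overlap exons of another gene, 19 of them on the opposite strand. The chi-square per degree of freedom between replicates was 8.42 (WT) and 61.4 (KO), which is more than sampling noise.

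The test was limma 3.58.1 in R 4.3.3 with a mean-variance trend, on log2(FPKM + 1), for the 13281 genes whose mean reached 1 FPKM in KO or WT. It was also run on simulated data, with the spread of the wild type pair and with changes larger than the family's median. Changes as small as that median, and the wider spread between KO 1 and KO 2, were not simulated. Copies were found with blastn 2.17.0. Values are named for the 6 most abundant members, the 3 with smallest p per subunit, and paralogue pairs. The 5 nearest to and farthest from the median profile are also named. A fixed set was named for roles in p53 surveillance, lymphocyte development, the stalk, mTORC1 signalling and marrow failure. In each other list, up to 3 genes of smallest p are named. Other genes named, and the copies, were chosen after their values were seen. Some genes that these rules name are not reported here. The members and lists were chosen with earlier results of these data known.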

Additional observations from a re-analysis of the deposited data

How the results depend on the processing

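Of 15 alternatives, the 3 chosen after seeing the data were the crossed pairing, the GC adjustment and the sum with copies. No ribosomal protein gene passed in any but the fit without KO 1, which called 3; leaving out each library gave 0 to 3. The family's median log2 change stayed negative, from -0.46 without KO 1 to -0.08 without KO 2, with -0.19 under voom and -0.36 with libraries rescaled without the family; it depends on which KO library is kept. The count of all genes called was 27, and it was 15 with a pseudocount of 0.1, 0 without a filter (2257 at an unadjusted p under 0.05), 61 with rescaling without the family and 3 with voom. Leaving out a library gave 0 to 948: 14 without WT 1, 29 without WT 2, 948 without KO 1 and 0 without KO 2 (1969 at an unadjusted p under 0.05). No cause of these moves was tested. Over 13281 genes WT 1 minus WT 2 and KO 1 minus KO 2 correlated at -0.15, and at 0.44 over the 83 members. These correlations differ in sign and cannot decide whether the label numbers pair the libraries. With a replicate block 68 genes and 0 members were called, and with the crossed pairing 213 genes and 0 members.

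Small changes of single genes reversed. Rps15 was 0.020 and Rps27 0.034 with quantile normalization, Rps27 was 0.028 with median centring, and Rps27 was 0.063 and Rpl36 0.019 with voom. Rpl41 was -0.032 with rescaling, -0.0089 with GC adjustment and -0.15 with its copies, and Rpl38 and Rps19 were 0.048 and 0.11 with theirs. Leaving out each library gave ranges of -0.43 to 0.27 for Rpl36, -0.24 to 0.16 for Rps27, -0.44 to 0.18 for Rpl38, -0.39 to 0.17 for Rps19, -0.32 to 0.41 for Rpl41, -0.051 to 0.49 for Rps28, -0.54 to 0.13 for Rplp1, -0.47 to 0.11 for Rps15, -0.48 to 0.080 for Rpl3, -0.39 to 0.0092 for Rpl22 and -0.51 to 0.13 for Rplp2. Rare genes are limited by depth: 1 fragment weighs more in a low value.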
